A study of Homo sapiens and Mus musculus with 69 samples.

Results

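The genes described here are 9 transcripts, several of which are known to stand downstream of Notch: the hairy and enhancer of split genes *HES1*, *HES2*, *HES4*, *HES5* and *HES6*, the related genes *HEY1*, *HEY2* and *HEYL*, and *NRARP*. They were chosen by name, as rows of the table of human cells and as the mouse symbols of the same names in the table of KP1 cells, by a rule that sets no measured value, although earlier results of these data were known. All 9 are among the 20516 genes of the human table, and 8 are among the 18501 genes of the KP1 table, which does not list *Hes4*.

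When a ligand on a neighboring cell engages a Notch receptor, γ-secretase cuts the receptor and its intracellular domain enters the nucleus, where it joins RBPJ and a Mastermind protein and switches on target genes. HES and HEY proteins are basic helix-loop-helix repressors that are the classical products of such targets, and in neural and neuroendocrine (NE) tissue they repress proneural factors. HES6 is the exception in this family, since it is known to counteract HES1 and to be expressed with proneural factors in differentiating neurons. NRARP is a small ankyrin-repeat protein that is induced by Notch and limits it by binding the RBPJ complex. In small cell lung cancer (SCLC), most cells are of the NE kind with little Notch activity, and Notch activity is known for the switch to a non-NE state.

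In the GRCh37 annotation (GENCODE), *HES1* lies on chromosome 3 from 193853937 to 193856521 on the plus strand. *HES4* (934342 to 935552), *HES5* (2460184 to 2461702), *HES2* (6472478 to 6484730) and *HEYL* (40089107 to 40105315) lie on the minus strand of chromosome 1. *HES6* spans 239146908 to 239149303 of chromosome 2, and *NRARP* spans 140194083 to 140196723 of chromosome 9, both on the minus strand. *HEY2* runs from 126068810 to 126082415 of chromosome 6 on the plus strand. Exons of *HES5*, *HES6*, *HEY2* and *NRARP* overlap those of a gene on the opposite strand, and since the use of strand in counting is not given in the sources used here, reads of such pairs may not have been told apart.

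Short stretches of the RefSeq promoters are shown because these genes are known through the letters that RBPJ binds, GTGGGAA or, read on the other strand, their reverse complement TTCCCAC. RefSeq promoter sequences (GRCh38.p14 table, 250 bases before to 50 bases after the start) were found for 8 of the 9 genes, and each stretch had a single exact match near its gene in GRCh37, whose coordinates are given. Capitals mark either of these and, in the first pair of stretches, the letters TTCACAC, which are the reverse complement of the related run GTGTGAA. Each is written along the strand of its gene.
HES1, chr3:193853852-193853881: GTGGGAAagaaagtttgggaagtTTCACAC
HES4, chr1:935525-935554: GTGGGAAagaatgcggagccgggTTCACAC
HES5, distal, chr1:2461907-2461936: ggcgagcgcgTTCCCACagcccggacattg
HES5, proximal, chr1:2461764-2461793: gccgcggagtGTGGGAAcggccgcggcgcc
HEY2, chr6:126070555-126070584: cgcggccgcgTTCCCACgcctcggctggag
HEYL, chr1:40105474-40105503: gcctagggccTTCCCACggctcggcggcgc

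The stretch of *HES1* began 85 bases before the start and that of *HES4* 77 bases before it. In both, GTGGGAA and TTCACAC faced each other with 16 bases between them, an arrangement that was present in 2 of 35116 promoters (0.0057%), namely these 2. The stretches of *HES5* began 234 and 91 bases before the start, that of *HEY2* 223 and that of *HEYL* 188. The printed stretches of *HES4* and *HEY2* lie wholly or mostly inside the GENCODE gene models, which begin further upstream than the RefSeq starts. GTGGGAA on either strand was present in 5 of the 8 promoters, compared with 2194 of all 35116 promoters (6.25%), and GTGTGAA on either strand in 2 of the 8, compared with 1053 (3%). The promoters of *HES2*, *HES6* and *NRARP* did not hold GTGGGAA in this window, which says nothing of RBPJ binding outside it.

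RNA was measured by bulk RNA-Seq in 69 libraries of 5 SCLC lines, in 23 groups of 3 libraries. H82, H524 and H69 are human lines studied as parental cells and as cells carrying a doxycycline-inducible vector for the *NOTCH1* intracellular domain (*N1ICD*), without doxycycline (no dox) and with it (dox). H82 was also studied with *N1ICD* and *REST* KO and with *N1ICD* and *STING* KO, and H524 with an inducible *REST* vector in place of *N1ICD*, each without and with dox. COR-L88, another human line, received DMSO, the LSD1 inhibitor TAS1440 or TAS1440 with a γ-secretase inhibitor (TAS1440 plus GSI), and COR-L88 cells with *STING* KO received DMSO or TAS1440. KP1, a line from a mouse SCLC model, received DMSO, TAS1440 or TAS1440 plus GSI. Per the methods, the GSI given to KP1 cells was a different compound from that given to COR-L88 cells. The labels give no time, and per the methods treatment was long term. Vector cells were selected with antibiotics, and the cells collected with dox were those that grew attached. The reads cannot separate vector *NOTCH1* from the cell's own. The labels do not tie *REST* KO or *STING* KO libraries to a clone.

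All levels are the deposited log2(RPKM + 1) values and all differences are differences of group means on that scale, which understates changes of genes near 0. A gene was called, and is said to have risen or fallen, at a limma adjusted *P* under 0.05 with an absolute difference of at least 1. The labels do not say that the 3 libraries of a group came from separate cultures, so *P* values measure only the spread between these libraries. Because the samples are bulk RNA, fewer expressing cells and less RNA per cell cannot be told apart. By the smallest steps in the values, library sizes ranged from 0.698 to 1.52 times the median in human cells and from 0.885 to 1.09 in KP1 cells.

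The targeted genes checked the labels in part. *NOTCH1* was at 0.01 to 0.04 in H82 parental cells and 0.88 to 1.45 in no dox cells, and reached 4.26 to 5.56 with dox. *REST* was at 4.42 to 4.80 in H82 *N1ICD* no dox libraries and 3.99 to 4.20 with *REST* KO, and with dox at 6.13 to 6.48 and 4.95 to 5.89, so its transcript was lower but present. *STING1*, listed as *TMEM173*, was at 2.03 to 2.54 in COR-L88 cells with TAS1440 and 0.96 to 1.16 in those with *STING* KO, whereas in H82 cells with dox it was at 1.07 to 1.17 without and 1.27 to 2.04 with the KO label. The paper shows immunoblots of single-cell *STING1* KO clones of H82 and COR-L88, and these RNA values do not measure the protein. Because the RNA did not check the label in H82 cells, the cells of that label are called labelled *STING* KO below. H69 *N1ICD* no dox cells differed from H69 parental cells in *NEUROD1*, a neuronal transcription factor (8.69 to 10.61 against 3.32 to 5.03). NE markers (*NEUROD1*, *INSM1*, *CHGA*, *SYP*, *NCAM1*, *SYN1*, *STMN2*) summed to 32.7 to 54.6 in the untreated groups other than KP1 and H82 labelled *STING* KO. Summed markers of immune cells (0 to 3.50) and endothelial cells (0 to 0.608) were low in every library.

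*HES6* had the highest median of these genes, 5.71 over the 60 human libraries, with values of 1.61 to 7.83. *NRARP* was also at 1 or higher in all 60 (1.13 to 8.07, median 3.51). *HEY1* reached 1 in 55 libraries, *HEY2* in 51, *HES4* in 47, *HEYL* in 44 and *HES1* in 43. *HES5* was listed at 0 in 18 libraries and at 1 or higher in 15, all of them *N1ICD* libraries with dox. *HES2* reached 1 in 8 libraries, all of them COR-L88 libraries with TAS1440 or TAS1440 plus GSI. In KP1 cells, *Hes2* was listed at 0 in all 9 libraries, *Hey2* and *Heyl* were at most 0.07 and 0.07, and *Hes5* was at most 1.003. RPKM values are per length, so levels of different genes may be set side by side within a table. They may not be set side by side between the 2 tables. RPKM summed to 1.20e+06 to 2.33e+06 in human libraries but 127599 to 143996 in KP1 libraries, so a level of 1 differs in meaning.

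The levels of *HES1* formed a broad order. Its group means ran from 5.47 (SD 0.82) in H82 *N1ICD* dox cells to 0.15 (SD 0.05) in H82 *REST* KO no dox cells, and 16 of the 19 steps between neighboring groups joined groups whose libraries overlapped. Clear gaps lay below H69 parental cells, below H69 no dox cells and below H82 labelled *STING* KO no dox cells. COR-L88 DMSO cells (4.65, SD 0.22) and H69 parental cells (4.22, SD 0.17) were near the induced H82 and H524 groups, whereas H524 parental cells were at 0.34 (SD 0.24). The group means of *HES6* ran from 7.50 (SD 0.44) in COR-L88 *STING* KO DMSO cells to 1.69 (SD 0.07) in H82 *N1ICD* dox cells, with the 5 *N1ICD* dox groups at the bottom and a gap above them.

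**Figure D1:**
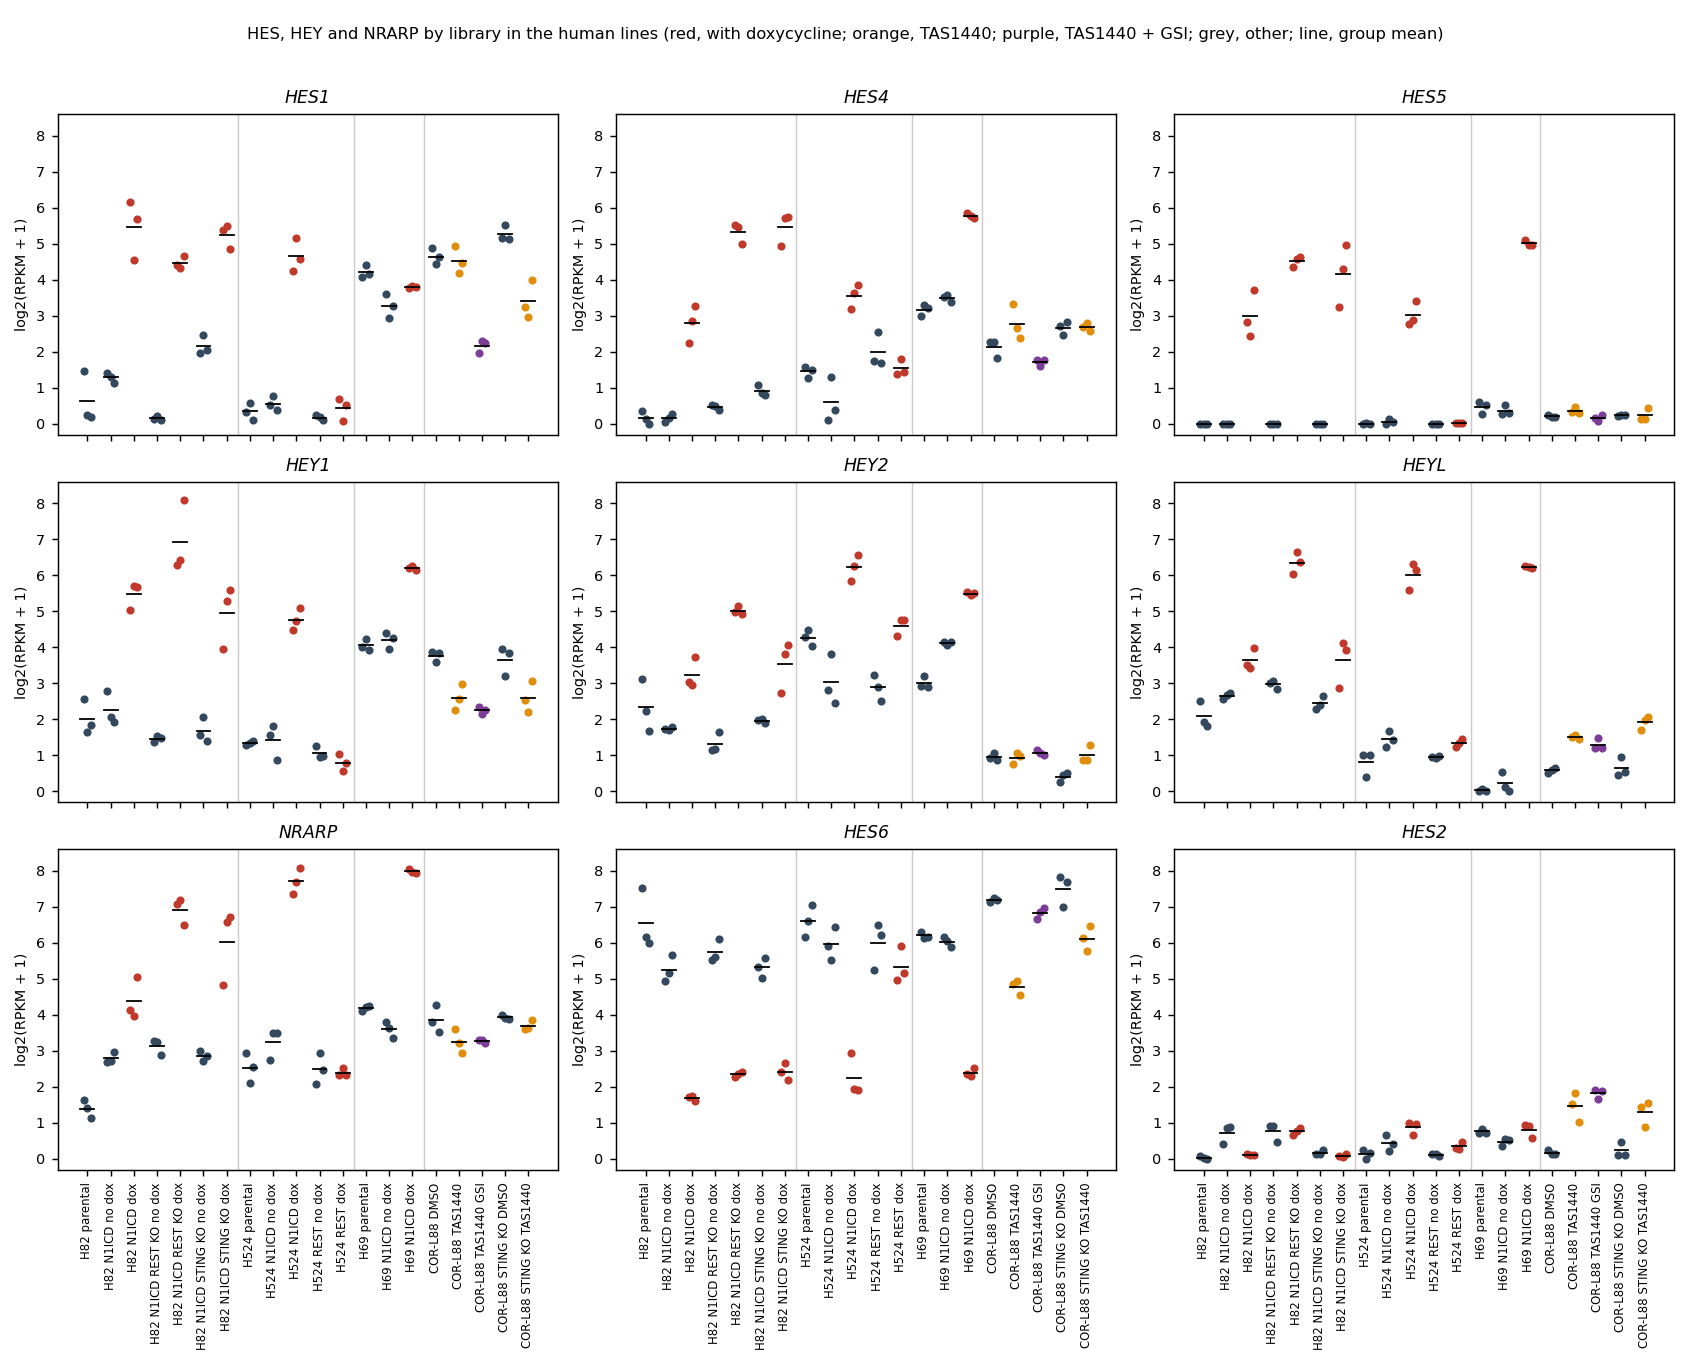
Deposited log2(RPKM + 1) values (y axis) of the 9 genes in each library (points), by group along the x axis. *HES5* stands above 1 only in the *N1ICD* dox groups, *HES2* only in treated COR-L88 groups, and *HES6* is lowest in the *N1ICD* dox groups.

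The first question is what *N1ICD* did to these genes in 3 lines. A gene was tested in a line if it was at 1 or higher in at least 3 libraries. Some members met this only through treated libraries. They were *HES4* and *HES5* in H82, *HES1* and *HES5* in H524 and *HES5* and *HEYL* in H69 cells. In COR-L88 cells they were *HES2*, *HEY2* and *HEYL*, and in KP1 cells *Hes1*. The filter thus favored a difference of these members but did not force one. *HEY2* in COR-L88 cells had means of 0.96 with DMSO and 0.94 with TAS1440. These members are left out of the counts that follow, except where a count is of all members tested. Their adjusted *P* values are from a fit of all genes with no filter. *HES2* was not tested in H82, H524 and H69 cells. In H82 cells, 5 of the other 6 genes were called, 4 higher and *HES6* lower, where 27.1% of all 13903 genes tested were called. In H524 cells all of the other 6 were called, 5 higher and *HES6* lower (18.6% of 13648 genes), and in H69 cells 5 of the other 6, with *HES6* again the 1 that was lower (41.8% of 13580 genes).

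*HES1*, the best known effector of Notch, was at 1.42, 1.31 and 1.14 in H82 libraries without dox and at 6.16, 4.56 and 5.69 with dox. In H524 cells it was at 0.53, 0.77 and 0.37 without dox and 4.25, 5.15 and 4.59 with dox. These groups did not overlap, and *HES1* rose by 4.18 (SE 0.34, adjusted *P* = 1.63e-08) and 4.11 (SE 0.23, adjusted *P* = 4.86e-08 without a filter). In H69 cells, *HES1* was at 3.62, 2.93 and 3.27 without dox and 3.76, 3.82 and 3.79 with dox. It was already high without induction, and the difference of 0.52 (SE 0.16, 95% CI 0.15 to 0.88, adjusted *P* = 0.015) was below the threshold of size, with all dox libraries above all no dox libraries.

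*HES4*, a paralog of *HES1* that rodents lack, was at 0.04, 0.15 and 0.28 without and 2.26, 2.84 and 3.27 with dox in H82 cells. It was at 0.10, 1.30 and 0.40 without dox and 3.19, 3.62 and 3.85 with it in H524 cells. In H69 cells it was at 3.54, 3.57 and 3.39 without dox and 5.85, 5.77 and 5.73 with it. The groups were apart in every line, and *HES4* rose by 2.63, 2.95 and 2.28 (adjusted *P* = 3.37e-07 without a filter, 4.66e-06 and 4.38e-08).

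*HES5*, an effector of Notch in neural progenitors, was listed at 0 in the 3 H82 no dox libraries and reached 2.82, 2.43 and 3.72 with dox (adjusted *P* = 2.15e-06 without a filter). In H524 cells it was at 0, 0.15 and 0.05 without dox and 2.77, 2.87 and 3.42 with dox. In H69 cells it was at 0.28, 0.52 and 0.29 without and 5.11, 4.96 and 4.96 with dox. *HES5* was thus near 0 in uninduced cells of all 3 lines and rose with dox in each, by 2.96 in H524 cells and 4.65 in H69 cells (adjusted *P* = 3.83e-09 and 8.85e-09 without a filter).

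*HES6*, the antagonist of *HES1*, went the other way. In H82 cells it was at 4.94, 5.16 and 5.65 without dox and 1.72, 1.74 and 1.61 with dox. In H524 cells it was at 5.90, 5.52 and 6.45 without dox and 2.93, 1.94 and 1.91 with it. In H69 cells it was at 6.16, 6.05 and 5.87 without dox and 2.36, 2.29 and 2.51 with it. No library with dox came near a library without it, and *HES6* fell by 3.56 (SE 0.30), 3.70 (SE 0.39) and 3.64 (SE 0.09) in the 3 lines (adjusted *P* = 2.53e-08, 6.11e-06 and 3.23e-09). The falls in the 3 lines did not differ from each other at the threshold, with 95% CIs of the differences of -0.95 to 0.79 (H69 minus H82), -0.81 to 0.93 (H69 minus H524) and -1.01 to 0.73 (H524 minus H82).

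*HEY1*, a repressor known from vessels, lies on chromosome 8 from 80674606 to 80680092 of GRCh37 on the minus strand. It was at 2.80, 2.07 and 1.92 without dox and 5.05, 5.71 and 5.68 with dox in H82 cells. In H524 cells it was at 1.56, 1.83 and 0.86 without dox and 4.47, 4.74 and 5.08 with it. In H69 cells it was at 4.41, 3.95 and 4.25 without dox and 6.20, 6.25 and 6.16 with it. The groups were apart, and the rises were 3.22 (SE 0.44), 3.35 (SE 0.23) and 2.00 (SE 0.12). H69 cells had the highest *HEY1* both without and with dox.

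*HEY2*, a repressor best known from heart and vessels, was at 1.73, 1.71 and 1.78 without dox and 3.05, 2.95 and 3.74 with dox in H82 cells. It was at 2.82, 3.82 and 2.45 without dox and 5.85, 6.26 and 6.56 with it in H524 cells. It was at 4.15, 4.05 and 4.15 without dox and 5.52, 5.44 and 5.51 with it in H69 cells. The groups were apart in each line, with rises of 1.51, 3.19 and 1.38 (adjusted *P* = 9.72e-04, 2.93e-06 and 7.12e-07).

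*HEYL*, a family member induced by Notch in smooth muscle, spread most between lines. In H82 cells it was at 2.55, 2.68 and 2.74 without dox and 3.52, 3.42 and 3.98 with dox, a difference of 0.98 (SE 0.27, adjusted *P* = 0.00568) just under the threshold of size that passed at 1.02, 1.04 and 1.09 without no dox library 6, dox library 7 and dox library 8 and at 1.09 with a pseudocount of 0.1. In H524 cells it was at 1.23, 1.69 and 1.42 without dox and 5.60, 6.32 and 6.14 with it, and in H69 cells at 0.54, 0.13 and 0.01 without dox and 6.27, 6.24 and 6.21 with it. All dox libraries were above all no dox libraries in each line, and *HEYL* rose by 4.57 (SE 0.21) in H524 cells and 6.01 (SE 0.12) in H69 cells.

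*NRARP*, the feedback inhibitor, was at 2.69, 2.71 and 2.97 without dox and 4.12, 3.97 and 5.06 with dox in H82 cells. It was at 2.74, 3.49 and 3.50 without dox and 7.36, 7.70 and 8.07 with it in H524 cells. It was at 3.81, 3.63 and 3.37 without dox and 8.05, 7.97 and 7.95 with it in H69 cells. The groups were apart in all lines, with rises of 1.59 (SE 0.38), 4.47 (SE 0.28) and 4.39 (SE 0.11).

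**Figure D2:**
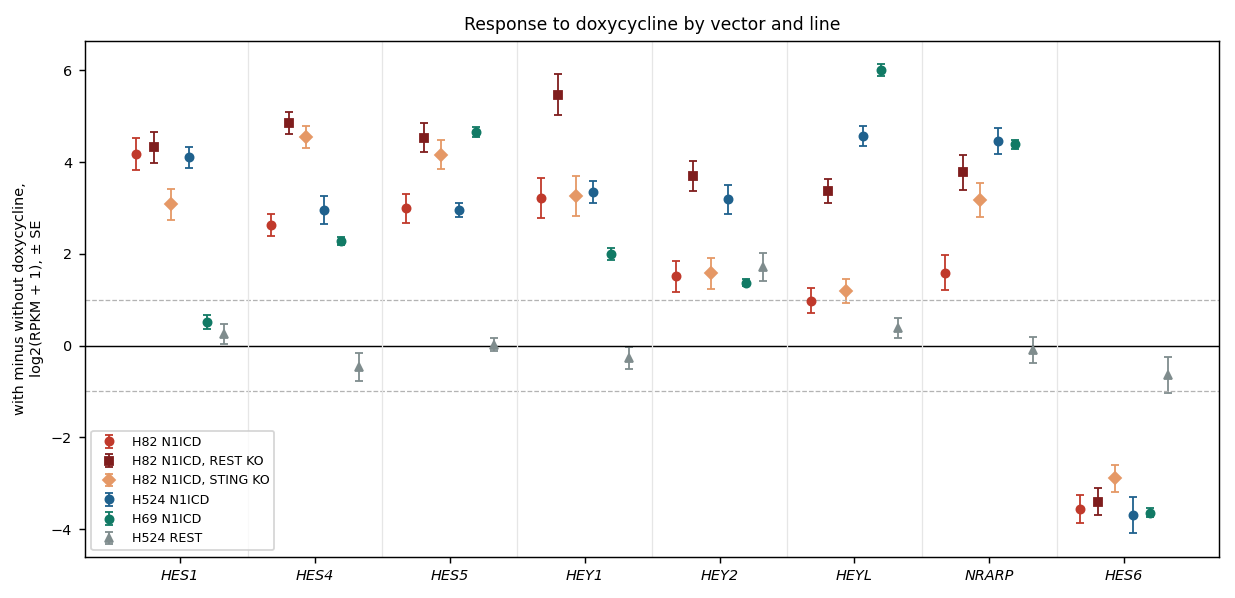
Difference of group means with minus without dox (y axis, log2(RPKM + 1) scale, points with bars of 1 SE of the limma fit) of 8 genes (x axis) in the 5 sets of *N1ICD* cells and in H524 cells with the *REST* vector (gray), with dashed lines at differences of 1. *HES6* lies below the lower line in all 5 sets of *N1ICD* cells, and with the *REST* vector only *HEY2* (1.72) lies beyond a dashed line.

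Responses were then compared between lines in 1 fit of the 60 human libraries. The counts here are of all 9 genes. They include *HES5*, which passed the filter only through *N1ICD* dox libraries, and *HES2*, which passed only through treated COR-L88 libraries. The filter thus bears on the calls of these 2. Between H69 and H82 cells, 5 of the 9 genes differed in response, where 43.1% of 15888 genes did: *HES1* (-3.66, SE 0.40) and *HEY1* (-1.22, SE 0.47) responded less in H69 cells, and *HEYL* (5.03, SE 0.30), *NRARP* (2.79, SE 0.42) and *HES5* (1.66, SE 0.30) responded more. Between H69 and H524 cells, 5 genes differed (36.8% of all): *HES1* (-3.59), *HEY2* (-1.82) and *HEY1* (-1.35) responded less in H69 cells and *HES5* (1.69) and *HEYL* (1.44) more. Between H524 and H82 cells, 4 genes differed (19.7% of all), with a larger response in H524 cells of *HEYL* (3.59, SE 0.30), *NRARP* (2.87, SE 0.42) and *HEY2* (1.68, SE 0.39). *HES2* differed by 1.04 (SE 0.21) with opposite directions. Its mean was lower with dox in H82 cells (0.71 without, 0.12 with dox) and higher in H524 cells (0.43 without, 0.87 with dox). *HES1* did not pass between H524 and H82 cells (95% CI -0.88 to 0.74). The call of *HES2* rests on values under 1 and was lost (0.93 to 0.98) without no dox library 5 or 6 of H82 or no dox library 23 or dox library 25 or 27 of H524. With a pseudocount of 0.1, the 2 calls of *HES5*, which reached 1 in dox libraries alone, were lost (0.25 and 0.69). *HES4* gained calls with that pseudocount between H69 and H82 cells (-2.48) and between H69 and H524 cells (-2.10), and in the second case also without H524 no dox library 23 (-1.02). *HES2* gained a call between H69 and H82 cells with a pseudocount of 0.1 (2.73), with quantile normalization (1.33), with median-centred libraries (1.06) and without H82 no dox library 4 (1.08) or H69 dox library 54 (1.04). The smaller response of *HEY1* in H69 cells was lost against H82 (-1.12 to -1.04) without H82 no dox library 5 or 6, H82 dox library 8 or 9 or H69 no dox library 49, and against H524 (-1.07) without H524 no dox library 24.

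*NOTCH1* itself was lower in H82 dox libraries (4.75, 4.26 and 5.56) than in those of H524 (7.58, 8.29 and 8.31) and H69 (8.07, 7.93 and 7.97), and its part in these differences between lines was not tested. The NE markers moved with dox too: 7 of 7 fell in H82 (summed level 42.2 to 47.3 without dox, 9.90 to 13.3 with dox), 5 of 7 in H524 (45.3 to 50.8 and 32.7 to 37.7) and 7 of 7 in H69 (48.6 to 49.5 and 7.67 to 8.24, *NEUROD1* at 0). *DLL3*, a Notch ligand that inhibits within the cell and marks NE cells, fell as *HES6* did, and ranged over 4.79 to 4.89 without and 0.83 to 1.003 with dox in H82 cells. It ranged over 4.21 to 5.49 without and 1.62 to 2.75 with dox in H524 cells and over 3.83 to 4.28 and 1.25 to 1.50 in H69 cells.

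In H524 cells the *REST* vector served as a comparison for *N1ICD*, since REST, a repressor of neuronal genes, is itself downstream of Notch. H524 *N1ICD* dox cells also had higher *REST* (5.85 to 6.12) than *N1ICD* no dox cells (2.66 to 4.20). *NOTCH1* was at 0.46 to 0.53 without and 1.41 to 2.29 with dox in *REST* vector cells. The part of these levels in the responses was not tested. In the *REST* vector cells, *REST* reached 6.87, 10.72 and 9.43 with dox. Of the other 6 genes tested only *HEY2* was called, where 1.87% of 13648 genes were: it was at 3.23, 2.91 and 2.52 without and 4.31, 4.75 and 4.75 with dox, with all dox libraries higher, a rise of 1.72 (SE 0.31, adjusted *P* = 0.0109). That call was lost without no dox library 36 or dox library 38 or 39, where the rise was 1.53 to 1.64, and its adjusted *P* ranged from 0.00901 to 0.0682 over all alternatives. *HES1* was at 0.23, 0.19 and 0.10 without and 0.69, 0.07 and 0.52 with dox, groups that overlapped (difference 0.26, 95% CI -0.23 to 0.74). *NRARP* was at 2.09, 2.94 and 2.47 without dox and 2.33, 2.53 and 2.33 with it (95% CI of the difference -0.71 to 0.51), and *HES6* at 5.26, 6.49 and 6.21 without dox and 4.97, 5.91 and 5.15 with it (95% CI -1.49 to 0.20). *HES5* did not exceed 0.04 with the *REST* vector.

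The responses to the 2 vectors differed in all of the other 6 genes (15.6% of all genes) and in *HES1* and *HES5*, which passed the filter only through *N1ICD* dox libraries. The differences were 4.57 (SE 0.40) for *NRARP*, 4.19 (SE 0.30) for *HEYL*, 3.85 (SE 0.32) for *HES1*, 3.62 (SE 0.33) for *HEY1*, 3.41 (SE 0.43) for *HES4*, 2.93 (SE 0.21) for *HES5*, -3.06 (SE 0.55) for *HES6* and 1.48 (SE 0.44) for *HEY2*. The difference for *HEY2* was lost when any of 8 of the 12 libraries (22, 24, 26, 27, 34, 35, 37 and 39) was left out, with values of 1.19 to 1.55 and an adjusted *P* of 0.00189 to 0.0897 over all alternatives. Between the 2 dox groups, all of the other 6 genes were called as well (23.8% of all genes), *HES6* lower and 5 higher with *N1ICD*. *HEY2* had its highest values of the series in H524 *N1ICD* dox cells (5.85, 6.26 and 6.56), above those of *REST* dox cells.

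In H82 cells the question was whether *REST* was needed for the response to *N1ICD*. With dox in *REST* KO cells, *HES4* and *HES5* aside, all of the other 6 genes were called, 5 higher and *HES6* lower (29.9% of all genes). *HES1* was at 0.14, 0.21 and 0.10 without and 4.42, 4.33 and 4.67 with dox, and *HES6* at 5.54, 5.61 and 6.10 without dox and 2.28, 2.34 and 2.42 with it. Both sets of groups were far apart, and the responses of *HES1* (4.32) and *HES6* (-3.40) did not differ from those of cells with intact *REST* at the threshold (95% CIs of the difference -0.88 to 1.16 and -0.74 to 1.06).

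Of the 6 genes, 4 responded more with *REST* KO, where 12.9% of all genes differed, and so did *HES4* and *HES5*. *HEYL* was at 3.02, 3.07 and 2.85 without and 6.03, 6.64 and 6.37 with dox in *REST* KO cells, so that its response exceeded that of intact cells by 2.39 (SE 0.38, adjusted *P* = 2.49e-04). *HES4* was at 0.54, 0.51 and 0.39 without dox and 5.52, 5.47 and 5.00 with it, with a larger response by 2.22 (SE 0.34, adjusted *P* = 3.50e-04 without a filter) that was lost with a pseudocount of 0.1 (1.47, adjusted *P* = 5.81e-05 to 0.114 over all alternatives). *HES5* reached 4.36, 4.59 and 4.65, against 0 without dox, above its dox libraries in intact cells.

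*NRARP* was at 3.29, 3.26 and 2.89 without dox and 7.08, 7.19 and 6.50 with it, *HEY1* at 1.37, 1.54 and 1.47 without dox and 6.28, 6.41 and 8.08 with it, and *HEY2* at 1.14, 1.17 and 1.66 without dox and 4.98, 5.15 and 4.93 with it. Each dox group stood above its no dox group, and the responses were larger by 2.18 (SE 0.53), 2.25 (SE 0.63) and 2.19 (SE 0.47). *HEY1* was highest in dox library 33 (8.08). Set side by side with dox, *REST* KO cells had *HEY1*, *HEY2*, *HEYL* and *NRARP* called higher than intact cells, 4 of the 6 (17.6% of all genes), and also *HES4* and *HES5*. There *HEY1* was lost at 0.87 without library 33, at 1.23 without intact dox library 7 and at 1.45 with only the compared groups in the fit (adjusted *P* of 0.0097 to 0.107 over all alternatives). *HES1* was not called there (-0.996, 95% CI -1.72 to -0.27), but passed at -1.45 without intact dox library 8 and at -1.09 without library 33. The larger response of *HES5* lost its call at 1.46 and 1.26 without intact dox libraries 7 and 8 (adjusted *P* of 0.00389 to 0.0661 over all alternatives).

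*NOTCH1* was also higher in *REST* KO dox libraries (8.75, 9.15 and 10.74) than in intact ones (4.75, 4.26 and 5.56), and its response differed by 4.53 (adjusted *P* = 4.62e-05). Its part in the larger responses was not tested. The summed NE markers stayed at 28.1 to 29.8 in *REST* KO dox cells. Without dox, 1 gene differed between *REST* KO and intact cells, where 6.24% of all genes did: *HES1* was lower (-1.14, SE 0.34, adjusted *P* = 0.0324). That call of a gene near the floor was kept without intact library 6 and lost without any of the other 5 libraries (-1.17 to -1.07), without a filter (-1.14) and with quantile normalization (-0.996). Over all alternatives its adjusted *P* ranged from 0.00211 to 0.0891.

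In H82 cells labelled *STING* KO, all of the 6 genes other than *HES4* and *HES5* were again called with dox, *HES6* lower and 5 higher (20.2% of all genes). *HES1* was at 1.98, 2.47 and 2.04 without and 5.39, 5.48 and 4.86 with dox, *HES4* at 1.07, 0.86 and 0.81 without dox and 4.94, 5.71 and 5.75 with it, and *HES6* at 5.33, 5.03 and 5.59 without dox and 2.42, 2.66 and 2.18 with it. All 3 were far apart between the conditions. *HEY1* was at 1.57, 2.06 and 1.41 without dox and 3.95, 5.30 and 5.59 with it, *HEYL* at 2.29, 2.40 and 2.65 without dox and 2.86, 4.13 and 3.92 with it, and *NRARP* at 3.01, 2.73 and 2.86 without dox and 4.82, 6.58 and 6.71 with it. *HES5* reached 3.24, 4.29 and 4.95 from 0, and *HEY2* was at 1.98, 2.01 and 1.89 without dox and 2.73, 3.83 and 4.05 with it. Dox library 58 was the lowest of the 3 dox libraries for *HEY1*, *HEY2*, *HEYL*, *HES4*, *HES5* and *NRARP*, and also for *NOTCH1* (5.97, 7.41 and 7.48). The rise of *HEYL* (1.19) was lost at 0.94 without dox library 59.

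The response of 0 of the 6 genes differed from intact cells by limma, with 2 at an unadjusted *P* under 0.05 (*NRARP* and *HES1*), where 7.12% of all genes did. *HES4* responded more by 1.92 (SE 0.34, adjusted *P* = 0.00274 without a filter), which was lost at 0.61 with a pseudocount of 0.1. The differences of *NRARP* (1.58, 95% CI 0.46 to 2.70), *HES5* (1.17, 95% CI 0.24 to 2.11) and *HES1* (-1.10, 95% CI -2.12 to -0.08) did not pass. They would have passed without library 58 or intact dox library 9 for *NRARP* (2.19 and 1.92) and *HES5* (1.63 and 1.54), with quantile normalization for *NRARP* (1.73), and without intact dox library 8 for *HES1* (-1.55). This test and that of *REST* KO share the intact H82 libraries. With dox, 1 of the 6 genes was higher than in intact dox cells (16.5% of all genes), *NRARP* by 1.65, and so were *HES4* by 2.68 and *HES5* by 1.17. *NRARP* and *HES5* overlapped between these groups and lost the call with only the compared groups in the fit (1.65 and 1.17), and *HES5* also without intact dox library 8 (0.89) or labelled KO library 60 (0.78). Without dox, 0 of 8 genes were called in the limma test (14.4% of all genes), with 2 at an unadjusted *P* under 0.05, *HES1* (0.87) and *HES4* (0.76, called at 2.25 with a pseudocount of 0.1). The NE markers in these no dox cells summed to only 25.7 to 30.4, compared with 42.2 to 47.3 in intact no dox cells.

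Uninduced vector cells were also compared with parental cells. *NOTCH1* was higher in *N1ICD* no dox than in parental cells of H82 (0.88 to 1.45 against 0.01 to 0.04). The same held in H524 (0.79 to 1.52 against 0.23 to 0.73) but not in H69 (0.38 to 0.39 against 0.58 to 0.62). The comparison therefore does not isolate the vector and selection, and the part of *NOTCH1* was not tested. In H82 cells, 2 of 8 genes differed (6.41% of all genes). *HES6* was at 7.53, 6.16 and 5.99 in parental and 4.94, 5.16 and 5.65 in no dox cells, a fall of 1.31 (SE 0.30) that rests on parental library 1 (0.82 without it, below the threshold) and was also lost with only the compared groups in the fit (adjusted *P* of 0.00313 to 0.213 over all alternatives). *NRARP* was at 1.64, 1.43 and 1.13 in parental and 2.69, 2.71 and 2.97 in no dox cells, with all no dox libraries higher, a rise of 1.40 that was lost without parental library 3 (1.26) or no dox library 5 or 6 (1.44 and 1.31), with an adjusted *P* of 0.00524 to 0.0812 over all alternatives. *HES1* passed without parental library 1 (1.07).

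In H524 cells 1 gene differed (12.1% of all genes): *HEY2* was at 4.28, 4.47 and 4.03 in parental and 2.82, 3.82 and 2.45 in no dox *N1ICD* cells, lower in the mean (-1.23, SE 0.31). That call was lost without no dox library 24 (-0.94) and with only the compared groups (adjusted *P* of 9.81e-04 to 0.119 over all alternatives). *HES4* passed with a pseudocount of 0.1 (-1.93) and without no dox library 23 (-1.21), and *HEYL* with a pseudocount of 0.1 (1.18). *REST* vector no dox cells had 0 of 8 genes called against parental cells in the limma test (0.264% of all genes), with 1 at an unadjusted *P* under 0.05, again *HEY2* (3.23, 2.91 and 2.52, -1.37). Both H524 vector lines without dox thus had lower means of *HEY2* than parental cells. In H69 cells 1 gene differed (5.27% of all genes), and it was *HEY2* in the other direction, at 2.92, 3.19 and 2.90 in parental and 4.15, 4.05 and 4.15 in no dox cells, a rise of 1.11 (SE 0.09). *HES1* was at 4.08, 4.40 and 4.16 in parental and 3.62, 2.93 and 3.27 in no dox H69 cells, a difference of -0.94 that did not reach the threshold of size except without parental library 46 (-1.01) or no dox library 49 (-1.11), or with a pseudocount of 0.1 (-1.01).

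In COR-L88 and KP1 cells, which carried no *N1ICD* vector, the question was whether LSD1 inhibition moved these genes and whether γ-secretase, which releases the Notch intracellular domain, was needed. In COR-L88 cells, TAS1440 changed 2 of the 5 genes other than *HES2*, *HEY2* and *HEYL* (22.8% of 13134 genes): *HES6* and *HEY1* fell. *HES2* rose. *HES6* was at 7.14, 7.24 and 7.20 with DMSO, 4.87, 4.94 and 4.54 with TAS1440 and 6.67, 6.86 and 6.96 with TAS1440 plus GSI. It was low only with TAS1440 alone, by -2.41 (SE 0.21, adjusted *P* = 5.52e-07) against DMSO and -2.04 (SE 0.21, adjusted *P* = 7.68e-06) against TAS1440 plus GSI.

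*HES1* was at 4.87, 4.44 and 4.63 with DMSO, 4.93, 4.18 and 4.47 with TAS1440 and 1.97, 2.30 and 2.23 with TAS1440 plus GSI. Values with DMSO and TAS1440 overlapped (difference -0.12, 95% CI -0.64 to 0.40), and addition of GSI went with lower values, by -2.48 (SE 0.24, adjusted *P* = 5.09e-06) against DMSO. *HES1* was among 3 of the 5 called between TAS1440 and TAS1440 plus GSI (14.7% of all genes), higher by 2.36 with TAS1440 alone, and with *HEY1* among 2 of the 5 called between TAS1440 plus GSI and DMSO (9.02% of all genes). *HEY1* was at 3.86, 3.59 and 3.85 with DMSO, 2.25, 2.57 and 2.97 with TAS1440 and 2.34, 2.15 and 2.26 with TAS1440 plus GSI. It was lower in both treated groups, by -1.17 and -1.52, and the treated groups overlapped (95% CI of their difference -0.16 to 0.86).

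*HES2* was at 0.23, 0.14 and 0.14 with DMSO, 1.53, 1.82 and 1.04 with TAS1440 and 1.92, 1.67 and 1.89 with TAS1440 plus GSI, rises of 1.29 and 1.66 to levels still under 2. *HES4* was at 2.28, 2.28 and 1.83 with DMSO, 3.33, 2.65 and 2.38 with TAS1440 and 1.78, 1.60 and 1.76 with TAS1440 plus GSI, and was called between TAS1440 and TAS1440 plus GSI (1.07, SE 0.20). The call of *HES4* was lost without TAS1440 library 13 (0.80), with quantile normalization (0.94) and with median-centred libraries (0.94), and the fall of *HEY1* with TAS1440 was lost without the same library 13 (-0.995). *HEYL* was at 0.51, 0.59 and 0.64 with DMSO, 1.52, 1.57 and 1.46 with TAS1440 and 1.20, 1.48 and 1.20 with TAS1440 plus GSI, differences from DMSO of 0.94 and 0.71 that were below the threshold of size except with a pseudocount of 0.1 (1.73 and 1.38). *NRARP* was at 3.80, 4.26 and 3.52 with DMSO, 3.60, 3.23 and 2.93 with TAS1440 and 3.29, 3.30 and 3.22 with TAS1440 plus GSI, with a difference of -0.61 (95% CI -0.998 to -0.21) between TAS1440 and DMSO. *HES5* stayed at or under 0.47 in the 15 COR-L88 libraries and was not tested.

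**Figure D3:**
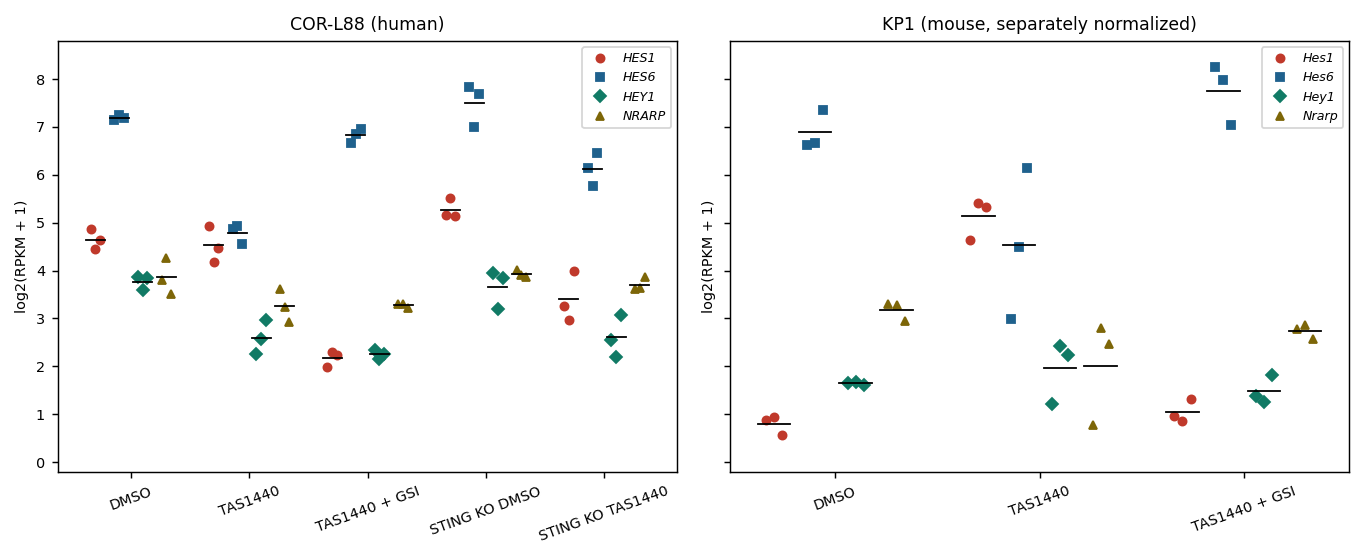
Deposited log2(RPKM + 1) values (y axis) in each library (points) of COR-L88 and KP1 cells by genotype and treatment (x axis), for *HES1*, *HES6*, *HEY1* and *NRARP*, with lines at the group means. *HES6* of COR-L88 was lowest with TAS1440 alone (4.54 to 4.94) and less low with *STING* KO (5.76 to 6.46), *Hes6* of KP1 ranged from 2.99 to 6.14 with TAS1440, *Hes1* of KP1 rose from under 1 to above 4.6 and *HES1* of COR-L88 was above 4 with DMSO and with TAS1440.

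*NOTCH1* was at 1.99, 2.79 and 2.26 with TAS1440 and 6.73, 6.71 and 6.75 with TAS1440 plus GSI in COR-L88 cells, so its transcript was highest in the group with low *HES1*. NE markers fell in 6 of 7 cases with TAS1440 (summed level 32.7 to 34.1 with DMSO, 12.6 to 13.9 with TAS1440) and in 5 of 7 with TAS1440 plus GSI (17.0 to 18.5). Their part in the values of *HES6* was not tested.

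In COR-L88 cells with *STING* KO, TAS1440 changed 3 of the 5 genes (16.0% of all genes), *HES1*, *HES6* and *HEY1*, and also *HES2* and *HEYL*. *HES1* was at 5.16, 5.51 and 5.13 with DMSO and 3.26, 2.98 and 3.99 with TAS1440, a fall of 1.86 (SE 0.24) that intact cells did not show. The difference between these responses was -1.74 (SE 0.34, adjusted *P* = 0.0105), the only one called among the 8 tested (4.23% of all genes). With TAS1440, *NOTCH1* was at 4.58, 2.82 and 4.93 in *STING* KO cells and at 1.99, 2.79 and 2.26 in intact cells. Its part in this difference was not tested. *HES6* was at 7.83, 7.00 and 7.68 with DMSO and 6.13, 5.76 and 6.46 with TAS1440, a fall of 1.38 (SE 0.21). Its response differed from that of intact cells by 1.02 (95% CI 0.39 to 1.66, adjusted *P* = 0.0503), which passed without *STING* KO DMSO library 40 (1.19) or *STING* KO TAS1440 library 44 (1.20), with quantile normalization (1.18) and with median-centred libraries (1.12), with an adjusted *P* of 0.0168 to 0.11 over all alternatives.

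*HEYL* was at 0.46, 0.96 and 0.53 with DMSO and 1.69, 1.99 and 2.07 with TAS1440 in *STING* KO cells, a rise of 1.27. *HEY1* was at 3.94, 3.20 and 3.84 with DMSO and 2.54, 2.20 and 3.07 with TAS1440, and *HES2* at 0.12, 0.48 and 0.11 with DMSO and 1.45, 0.89 and 1.54 with TAS1440. *HEY1* fell by 1.06 and *HES2* rose by 1.06, but *HEY1* lost the call without library 40, 42 or 44 (-0.97 to -0.85) and *HES2* without library 40, 42, 43 or 45 (0.93 to 0.999) or with quantile normalization (0.71). With TAS1440, 2 genes differed between *STING* KO and intact cells (6.53% of all genes), *HES6* by 1.33 and *HES1* by -1.12. That of *HES1* was lost without intact library 13 (-0.92) or *STING* KO library 44 (-0.90), with quantile normalization (-0.99), with median-centred libraries (-0.98) and with only the compared groups (-1.12, adjusted *P* of 0.00111 to 0.0545 over all alternatives). With DMSO, 0 of 8 genes were called in the limma test (1.47% of all genes), with 3 at an unadjusted *P* under 0.05: *HES1* (0.62), *HES4* (0.54) and *HEY2* (-0.55). With a pseudocount of 0.1, *HEY2* was called there (-1.31) and with TAS1440 against DMSO in *STING* KO cells (1.39).

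In KP1 cells, 4 of the 8 genes were tested, and of the 3 other than *Hes1*, *Hes6* was called lower with TAS1440 (18.8% of 8260 genes). *Hes1* rose. *Hes1* was at 0.87, 0.93 and 0.55 with DMSO, 4.64, 5.42 and 5.33 with TAS1440 and 0.95, 0.86 and 1.31 with TAS1440 plus GSI. It was high only with TAS1440 alone, by 4.34 (SE 0.23, adjusted *P* = 4.52e-05) against DMSO and 4.09 (SE 0.23, adjusted *P* = 7.14e-05) against TAS1440 plus GSI, both without a filter. *Hes6* was again the 1 of the other 3 that was called against TAS1440 plus GSI (16.5% of all genes). *Hes6* was at 6.62, 6.67 and 7.36 with DMSO, 2.99, 4.48 and 6.14 with TAS1440 and 8.25, 7.98 and 7.04 with TAS1440 plus GSI. TAS1440 library 6 lay close to the DMSO libraries, and *Hes6* differed by -2.35 (SE 0.68, adjusted *P* = 0.0232) against DMSO and -3.22 (SE 0.68, adjusted *P* = 0.00577) against TAS1440 plus GSI. The first of these calls was kept without library 6 (-3.15) and lost without any of the other 5 libraries (-2.48 to -1.58) and without a filter (-2.35), with an adjusted *P* of 0.00166 to 0.0775 over all alternatives.

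*Nrarp* was at 3.30, 3.28 and 2.95 with DMSO, 0.77, 2.79 and 2.46 with TAS1440 and 2.77, 2.85 and 2.57 with TAS1440 plus GSI. Its lower values with TAS1440 were not called (-1.17, 95% CI -2.16 to -0.18), although they passed without TAS1440 library 5 (-1.56) and with quantile normalization (-1.21). *Hey1* was at 1.66, 1.66 and 1.60 with DMSO, 1.21, 2.43 and 2.22 with TAS1440 and 1.39, 1.26 and 1.83 with TAS1440 plus GSI, and its groups overlapped (95% CI of the difference with TAS1440 -0.35 to 0.97). *Hes5*, not tested, was at 0.38, 0.37 and 0.31 with DMSO, 0, 0 and 0.11 with TAS1440 and 1.003, 0.51 and 0.77 with TAS1440 plus GSI. Between TAS1440 plus GSI and DMSO, 0 of 4 genes were called in the limma test (1.21% of all genes) and 0 had an unadjusted *P* under 0.05 (95% CI for *Hes1* -0.27 to 0.77). The 3 tested NE markers fell with TAS1440 (summed level of the 7 markers 17.6 to 19.9 with DMSO, 0.705 to 9.37 with TAS1440).

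The rest of the pathway is given as counts, in lists that were drawn up with earlier results of these data known. They are to be read against the share of all genes called, which was 27.1% in H82, 18.6% in H524 and 41.8% in H69 with dox and 22.8% in COR-L88 and 18.8% in KP1 with TAS1440. Of the Notch receptors tested, 2 of 3 rose with dox in H82 *N1ICD* cells, 3 of 3 in H524, 3 of 3 in H69, 3 of 3 with TAS1440 in COR-L88 and 1 of 1 in KP1. *NOTCH1* includes the vector, and *NOTCH3* reached 1 in H82, H524 and H69 cells only with *N1ICD* and dox, so these rises were fixed in advance. In H82 cells, *NOTCH2* (means 4.10 without and 5.05 with dox) was not called. *NOTCH1* and *NOTCH3* in COR-L88 and *Notch2* in KP1 also passed the filter only through treated libraries. *NOTCH3*, a receptor that is itself a Notch target, was at 0.09 to 0.20 without and 2.89 to 4.51 with dox in H82 cells, 0.33 to 0.61 and 7.94 to 8.15 in H524 and 0.42 to 0.73 and 9.19 to 9.36 in H69 cells. The mean difference of *NOTCH3* was smallest in H82 and largest in H69 cells, the order that *HEYL* had. Of the ligands, 2 rose and 2 fell of 4 in H82, 1 rose and 3 fell of 5 in H524, 1 rose and 4 fell of 5 in H69, 3 of 5 fell with TAS1440 in COR-L88 and 4 of 4 in KP1.

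Of genes of receptor processing, which include the secretases, 1 of 11 fell in H82, 1 of 11 in H524, 1 rose and 3 fell of 12 in H69, 2 rose and 2 fell of 11 in COR-L88, and 2 of 12 fell in KP1. Of the transcription complex with RBPJ and the Mastermind genes, 1 rose and 2 fell of 8 in H82, 1 rose and 2 fell of 8 in H524, 2 of 8 fell in H69, 2 rose and 1 fell of 8 in COR-L88 and 0 of 3 were called by limma in KP1 (1 at an unadjusted *P* under 0.05). Of the corepressors through which HES and HEY proteins and RBPJ act, 1 of 9 fell in H82, 0 of 9 were called by limma in H524 (3 at an unadjusted *P* under 0.05), 2 rose and 1 fell of 9 in H69, 2 of 9 rose in COR-L88 and 1 of 8 fell in KP1. Of proneural factors, the best known genes under HES repression, 2 of 2 fell in H82, 3 of 5 in H524 and 4 of 4 in H69, whereas limma called 0 of 2 with TAS1440 in COR-L88 (2 at an unadjusted *P* under 0.05) and 0 of 1 in KP1 (1 at an unadjusted *P* under 0.05). *DTX1*, another known Notch target, rose in H524 (by 2.06) but was not called in intact H82 (-0.97) or H69 (-0.41). In H82 *REST* KO cells it was at 0.43 to 0.59 without and 3.59 to 4.14 with dox. In H82 cells labelled *STING* KO it was at 0.07 to 0.16 without and 0.96 to 1.64 with dox. Intact H82 no dox cells (1.71 to 2.01) were already above parental cells (0.03 to 0.65).

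Over all 21 human comparisons between groups, *HES6* was called lower in 10 and higher in 1, *HES1* higher in 6 and lower in 4, and *HEY1* higher in 7 and lower in 3. *HES4* and *NRARP* were called higher in 9 each, *HES5* in 8 of the 15 where it was tested and *HEYL* in 7, with none of these 4 called lower. *HEY2* was called higher in 9 and lower in 1, and *HES2* higher in 3 and lower in 0 of the 6 where it was tested. *HES1*, *HES6*, *HEY1* and *HEY2* were thus called in both directions within the series. Where they were not called, *NRARP* still had all libraries lower in 3 comparisons and *HES4* in 1. The share of all genes called ran from 0.264% to 41.8% over the 21 comparisons. These counts share control groups, include members that passed the filter only through treated libraries, and describe the series only.

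Likeness of pattern was described over the 20 human group means after subtraction of the mean of each line. These points share libraries, lines and control groups, and the induced groups weigh most in them. *HES6* was most like *CNTNAP2* (Pearson *r* = 0.97), a neuronal adhesion gene, *RCOR2* (0.96), a corepressor partner of LSD1, and *CECR5* (0.95), among 14707 genes. *NRARP* was most like *TTYH1* (0.97), *PDGFRB* (0.97) and *TENC1* (0.96), and *HEY1* most like *SNAI2* (0.97), a repressor known from epithelial-mesenchymal transition, the Notch ligand *JAG1* (0.96) and the myosin gene *MYH9* (0.96). *HES1* had lower highest values, with *IGFBP5* (0.93), *DHRS3* (0.93) and *SQSTM1* (0.92). Among the members, *HES5* and *NRARP* (0.93) and *HES4* and *HES5* (0.92) were most alike, and *HES6* ran against the other members (-0.90 to -0.76) apart from *HES2* (-0.31). *HEYL* ran with *NOTCH3* (0.97) and *HES6* with *DLL3* (0.90), whereas *HES1* had values of 0.55 with *NOTCH1* and 0.09 with *REST*.

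**Figure D4:**
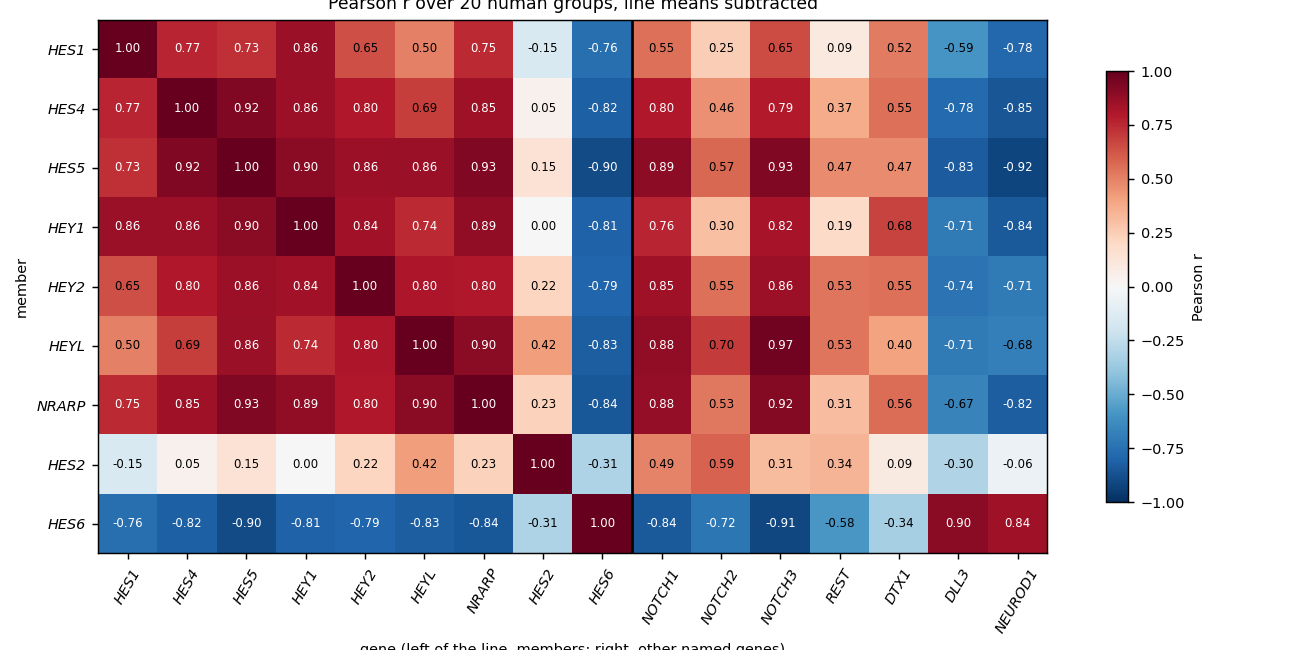
Pearson *r* of the members (y axis) with each other and with other named genes (x axis, color scale from -1 to 1) over 20 human group means centered within each line. *HES6* is negative against the other members (-0.90 to -0.76 apart from *HES2*, -0.31), and *HES2* has no value above 0.42 with another member.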

How the data were processed

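RNA-Seq covered 60 libraries of human SCLC lines and 9 of the mouse line KP1. Per the methods and the submitters' processing notes, stranded mRNA libraries were trimmed with cutadapt, aligned with STAR (hg19, mm10), quantified with RSEM and scaled by TMM in edgeR. The deposited values, made by the authors, are log2 values of RPKM + 1, in 1 table for human cells and another, normalized separately, for KP1. Tool versions and the annotation are not given in the sources used here, and read counts were not used, so depth is known only as relative library size.

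From these values, groups were compared within each line with limma 3.58.1 (R 4.3.3, variances with a trend, 1 mean per group, two-sided, Benjamini-Hochberg over all genes tested). Genes reaching a log2 value of 1 in 3 or more libraries of a line were tested. Members that did so only through treated libraries were left out of counts other than those of all members tested. Their adjusted *P* values are from the fit without a filter. Both choices were made after seeing the data. In all, 24 comparisons and 7 differences between responses were made. Intervals are 95% CIs. The fit was tested on simulated data. Libraries of 1 group correlated at 0.871 to 0.995, and no pair was a duplicate. Sequences are from RefSeq, and tables and figures were made with Python 3.11.15, pandas 2.3.3 and matplotlib 3.10.9.

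The 9 genes and the lists were chosen with earlier results of these data known. A gene of the marker and proneural lists is not reported here, and list counts and sums are without it. The 9 genes were named in every comparison, other genes only beside them, and the genes of like pattern were the 3 of highest correlation. Alternatives were to drop the filter, to use a pseudocount of 0.1, to normalize by quantiles, to centre libraries on their medians, to fit just the groups compared, to fit variances without a trend, and to leave out each library.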

Additional observations from a re-analysis of the deposited data

Results flagged for a closer look

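The results below stand out because the response of a gene to the same treatment differed between cell lines or genotypes, by a limma test of the difference itself (adjusted *P* under 0.05, absolute difference of at least 1). Values are differences of log2 differences. *HES4* and *HES5* in H82 cells and *HES1* and *HES5* in H524 cells passed the filter on low values only through dox libraries, and they were called without the filter too. Some of the calls below were lost under other alternatives, as given above. In H82 cells these were *HES4* and *HES5* with *REST* KO and *HES4* with labelled *STING* KO. Between the H524 vectors it was *HEY2*, and between H524 and H82 cells *HES2*. Between H69 and each of the other lines, the calls of *HES5* and *HEY1* were lost.

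Dox induced *HEYL* (2.39), *HEY1* (2.25), *HES4* (2.22), *HEY2* (2.19), *NRARP* (2.18) and *HES5* (1.54) more in H82 *N1ICD* cells with *REST* KO than in those with intact *REST*. The label of *STING* KO in H82 cells went with a larger response of *HES4* (1.92). The *N1ICD* vector of H524 cells exceeded the *REST* vector in the response of *NRARP* (4.57), *HEYL* (4.19), *HES1* (3.85), *HEY1* (3.62), *HES4* (3.41), *HES5* (2.93) and *HEY2* (1.48), and *HES6* fell further with it (-3.06). In COR-L88 cells, *STING* KO went with a fall of *HES1* with TAS1440 that was greater than in intact cells (-1.74).

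Between lines, the *N1ICD* response of *HES1* was smaller in H69 than in H82 (-3.66) and H524 cells (-3.59), as was that of *HEY1* (-1.22 and -1.35). The response in H69 cells was larger for *HES5* (1.66 and 1.69) and *HEYL* (5.03 and 1.44) than in H82 and H524 cells. It was larger than in H82 cells for *NRARP* (2.79) and smaller than in H524 cells for *HEY2* (-1.82). H524 cells exceeded H82 cells in the response of *HEYL* (3.59), *NRARP* (2.87) and *HEY2* (1.68). *HES2* differed by 1.04, with a mean that was lower with dox in H82 cells and higher in H524 cells. In this fit *HES5* passed the filter only through *N1ICD* dox libraries and *HES2* only through treated COR-L88 libraries. *NOTCH1* levels with dox differed between these lines and genotypes as well, and their part was not tested.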

How the results depend on the processing

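No paired analysis was possible because the numbers in the labels are library numbers that no compared groups share. No result that was called in the main fit or under an alternative reversed direction between them. Changes of sign among results called in neither were not counted. Of 1788 results of single genes when a library was left out, 1713 kept their status, called or not called, 55 lost a call and 20 gained one. Using variances without a trend changed the call of 0 of 239 results, no filter on low values 2, median-centred libraries 4, quantile normalization 8, only the compared groups 6 of the 180 it was run on, and a pseudocount of 0.1 16.

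Counts of genes called moved by more than 1.5 times as follows. In H82 *REST* KO against intact cells without dox, 1 became 0 without a filter and with quantile normalization, and 0 to 1 when a library was left out. In H82 labelled *STING* KO against intact cells, 3 became 1 with dox in a fit of only the compared groups, and 0 became 1 without dox at a pseudocount of 0.1. In no dox against parental cells, 2 became 1 in H82 with only the compared groups (1 to 2 when leaving out a library), 1 became 3 (pseudocount 0.1) or 0 (only the compared groups) in H524 (0 to 2), and 1 became 2 in H69 with a pseudocount of 0.1 (1 to 2). In H524 *REST* vector cells with dox, 1 became 0 to 1 when a library was left out. In COR-L88 *STING* KO cells, 5 genes called with TAS1440 became 3 to 5 when a library was left out. Against intact TAS1440 cells, 2 became 1 with quantile normalization, median-centred libraries or only the compared groups (1 to 2), and against intact DMSO cells 0 became 1 with a pseudocount of 0.1. In KP1 with TAS1440 against DMSO, 2 became 1 without a filter (1 to 2). For the difference of responses between H82 labelled *STING* KO and intact cells, 1 became 0 with a pseudocount of 0.1 and 2 with quantile normalization (1 to 3), and for that between COR-L88 *STING* KO and intact cells 1 became 2 with quantile normalization or median-centred libraries (1 to 2). The causes were not tested. The 16 results that the pseudocount changed were 6 of *HES4*, 4 of *HEYL*, 2 of *HEY2*, 2 of *HES5*, 1 of *HES1* and 1 of *HES2*, and depth in reads is not known.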
